A study of Mus musculus with 7 samples.

Results

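Derl3 and 9 other genes of the endoplasmic reticulum (ER) stress response were followed in the livers of 7 mice. They are the derlins Derl1, Derl2 and Derl3, the chaperones Hspa5, Dnajb9 and Sdf2l1, and the disulfide isomerase family genes Pdia4 and Pdia6. The others are the ER stress gene Creld2 and the transcription factor Xbp1. The genes were chosen by symbol as known targets of the transcription factors ATF6 and XBP1, with their co-variation over the livers and their genotype differences already known from these arrays. All 10 were measured, among 16462 genes in all, and held 11 of the 23574 probes of the table, since Derl1 had 2 probes. Because the same values had chosen them, their levels, differences and correlations are given as a description, with no test.

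The mice were on a chow diet, 4 wild-type littermates (livers 1 to 4) and 3 C3ar1-/- mice (livers 2 to 4, called knockouts here), which lack the receptor for the complement fragment C3a. Each liver had its own 2-colour array, on which its RNA was compared with a common reference pooled from the livers of 6 wild-type controls. The strain, age and sex of the mice and the deleted part of the gene are not given in the sources used here. Every value is a log10 ratio of a liver to the pool, so that 0 means the level of the pool. Base 10 and the direction, mouse over pool, are not stated by the submitters and were inferred, the base from the spread of the values and the direction from the titles, which name the pool before the mouse. A turned direction would turn every sign, and every fold given rests on base 10. The ratios compare livers for a gene and give no level of one gene against another.

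Proteins that enter the secretory pathway fold in the ER with the help of chaperones and disulfide isomerases, and those that fail to fold are pulled back into the cytosol and degraded, a route in which the derlins take part. When unfolded proteins build up, ATF6 and the spliced form of XBP1 raise the genes of both systems, and the PERK kinase acts through ATF4 and CHOP. Hepatocytes secrete most plasma proteins and carry a large ER. Many targets of ATF6 and XBP1 hold an ER stress response element (ERSE) before their start site, in which a CCAAT box, bound by NF-Y, is followed at a fixed distance by CCACG.

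The sequence before the start site is shown first, because the genes were grouped as targets of those factors. Promoter windows came from RefSeq (GRCm38.p6) and were matched by symbol for 9 of the 10 genes, with 2 windows for Derl2 and no entry for Derl1. Searched on both strands of the 250 bases before the start site, the full element, CCAAT and CCACG with any 9 bases between them, was present in Derl3, Creld2, Hspa5 and Pdia6. The 4 windows are written 5′ to 3′ on the strand of the gene, all on the plus strand, with the element in capitals. In Derl3 and Creld2 the element lies on the opposite strand, so that it reads CGTGG first and ATTGG last.
Derl3, chr10:75893148-75893397: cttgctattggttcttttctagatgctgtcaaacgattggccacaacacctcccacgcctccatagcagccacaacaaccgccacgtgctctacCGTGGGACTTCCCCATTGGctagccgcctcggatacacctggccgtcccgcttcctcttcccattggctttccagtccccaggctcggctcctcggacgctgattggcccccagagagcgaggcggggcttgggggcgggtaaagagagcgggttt
Creld2, chr15:88819396-88819645: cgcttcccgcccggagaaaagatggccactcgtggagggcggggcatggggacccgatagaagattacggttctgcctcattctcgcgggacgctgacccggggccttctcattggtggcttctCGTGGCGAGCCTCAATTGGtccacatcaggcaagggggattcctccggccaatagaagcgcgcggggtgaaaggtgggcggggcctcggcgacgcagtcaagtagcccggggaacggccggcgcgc
Hspa5, chr2:34771840-34772089: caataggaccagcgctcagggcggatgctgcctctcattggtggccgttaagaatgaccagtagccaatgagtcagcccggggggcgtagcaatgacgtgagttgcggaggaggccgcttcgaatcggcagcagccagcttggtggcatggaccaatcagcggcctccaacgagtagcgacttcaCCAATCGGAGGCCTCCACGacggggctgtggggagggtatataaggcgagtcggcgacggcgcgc
Pdia6, chr12:17266339-17266588: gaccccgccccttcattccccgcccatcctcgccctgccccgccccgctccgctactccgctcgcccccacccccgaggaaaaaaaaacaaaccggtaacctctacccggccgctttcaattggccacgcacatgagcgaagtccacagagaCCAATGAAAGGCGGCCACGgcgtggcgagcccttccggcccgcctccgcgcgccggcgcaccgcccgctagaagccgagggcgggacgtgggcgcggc

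Counted back from the start site, the element spans -156 to -138 in Derl3, -126 to -108 in Creld2, -65 to -47 in Hspa5 and -98 to -80 in Pdia6. It was found in 37 of all 32851 RefSeq windows, or 0.113%. With 1 fixed letter allowed to differ it was also found in Pdia4 (AGTGGCAGCCCGTGATTGG, -108 to -90) and in 1 window of Derl2 (TGTGGCCGGCAGGGATTGG, -186 to -168), against 1.32% of all windows. Read as the element, with positions counted from 1 at the first C of CCAAT, the substitutions are G19T in Pdia4 and G19A in Derl2. The related elements ERSE-II (ATTGG and CCACG with any 1 base between them) and TGACGTGG (the unfolded protein response element) were in 0 of these 10 windows and in 0.0304% and 0.563% of all windows. Without regard to spacing, CCAAT was in the windows of 8 of these genes and in 33.8% of all windows, and CCACG in those of 7 genes and in 28.3%. The letters mark a match and show no binding, and since the genes were picked as targets of these factors their share is no independent result. The full element overlaps with the CCAAT and CCACG counted here.

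Sdf2l1 and Dnajb9, whose windows hold no full element, are shown for contrast, since Sdf2l1 varied with Derl3 over the livers and Dnajb9 did not. Both lie on the minus strand, and capitals mark CCAAT and CCACG in either orientation.
Sdf2l1, chr16:17132384-17132633: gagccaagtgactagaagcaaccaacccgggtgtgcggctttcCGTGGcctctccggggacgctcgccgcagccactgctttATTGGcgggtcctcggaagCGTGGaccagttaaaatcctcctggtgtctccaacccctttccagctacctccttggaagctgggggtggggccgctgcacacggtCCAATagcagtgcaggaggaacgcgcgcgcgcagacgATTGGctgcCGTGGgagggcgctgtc
Dnajb9, chr12:44210069-44210318: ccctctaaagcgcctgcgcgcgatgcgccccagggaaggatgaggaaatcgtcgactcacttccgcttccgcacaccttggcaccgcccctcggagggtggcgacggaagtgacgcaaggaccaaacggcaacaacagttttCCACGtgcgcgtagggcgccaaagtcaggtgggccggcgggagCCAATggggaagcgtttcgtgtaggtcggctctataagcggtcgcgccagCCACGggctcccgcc

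The arrays as a whole were similar in centre, with medians from -0.0008 to 0.0139. Knockout liver 2 had the widest spread over probes (SD 0.0975, against 0.0466 to 0.0676 on the others). The single probe of the targeted gene, C3ar1, averaged 0.0298 ± 0.0238 (SD, n = 3) in the knockouts and -0.0031 ± 0.0319 (SD, n = 4) in the wild types (limma, adjusted p = 0.884), and since the deleted part is unknown it does not check the labels. Over all probes 1 passed the comparison of genotypes, or 0.00424%, and 1054, or 4.47%, lay under an unadjusted p of 0.05. The number of arrays limits the precision.

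Derl3, which encodes a derlin of the ER membrane that takes part in the removal of misfolded proteins, differed widely between mice, by more than its genotype means differed. It stood at -0.469, -0.566, 0.301 and -0.143 in wild-type livers 1 to 4. In knockout livers 2, 3 and 4 it stood at -0.560, -0.526 and 0.371. A single liver of each genotype, wild-type liver 3 and knockout liver 4, was thus far above the rest, and wild-type liver 4 lay between. The highest and the lowest liver were 8.65-fold apart, and the SD over the 7 livers, 0.412, ranked 11 among all 23574 probes. Knockout liver 4 was 8.20-fold above the mean of the other knockouts, and wild-type liver 3 was 4.94-fold above the mean of the other wild types. The genotype means were -0.238 ± 0.528 (SD, n = 3) in the knockouts and -0.219 ± 0.391 (SD, n = 4) in the wild types. Their difference, -0.0193 ± 0.279 (SE), lay within the spread of either genotype and was too imprecise to show that the genotypes were alike, and genotype took up 0.0625% of the variation.

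The other derlins varied over a narrower range than Derl3 and in another order. Derl1, the most widely expressed derlin, was measured by 2 probes that agreed in order over the livers for the most part (r = 0.91). Its first probe ranged from -0.0723 in wild-type liver 4 to 0.0854 in wild-type liver 2, and the second from -0.186 to 0.0961 in the same livers, or 1.44-fold and 1.92-fold. Derl2, a derlin known as a target of XBP1, ranged from -0.0603 in wild-type liver 1 to 0.0750 in wild-type liver 2, or 1.37-fold. Both genes were thus highest in a liver where Derl3 was at its lowest. The correlation with Derl3 was 0.19 for Derl1 and 0.33 for Derl2, while Derl1 and Derl2 correlated at 0.75.

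**Figure D1:**
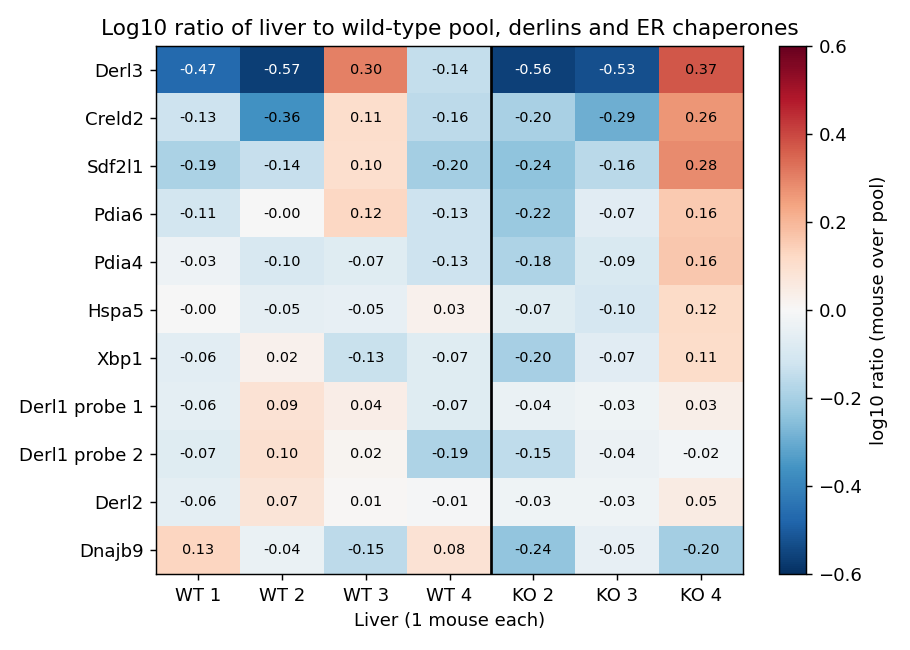
Log10 ratio of each liver to the wild-type pool for the 11 probes (rows) in 4 wild-type (WT) and 3 knockout (KO) livers (columns), with the value printed in each cell. Derl3 reaches 0.30 in WT 3 and 0.37 in KO 4 and lies at -0.14 or below in the other livers, while Dnajb9 is low in both of those livers.

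Among the chaperones, Sdf2l1, a partner of ER-resident DnaJ proteins, came closest to Derl3. It stood at -0.188, -0.139, 0.100 and -0.202 in wild-type livers 1 to 4 and at -0.239, -0.163 and 0.283 in knockout livers 2 to 4. Wild-type liver 3 and knockout liver 4 were again the highest and the only livers above the pool, and the extremes were 3.33-fold apart. The genotype means were -0.107 ± 0.141 (SD, n = 4) in the wild types and -0.0396 ± 0.282 (SD, n = 3) in the knockouts, a difference of 0.0677 ± 0.130 (SE).

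Hspa5, which encodes BiP, the central chaperone of the ER and the usual marker of ER stress, varied less. It stood at -0.0006, -0.0545, -0.0511 and 0.0264 in wild-type livers 1 to 4 and at -0.0722, -0.0993 and 0.115 in knockout livers 2 to 4. Knockout liver 4 was the highest, and wild-type liver 3 was below wild-type livers 1 and 4, unlike in Derl3. The range was 1.64-fold, and the genotype means, -0.0200 ± 0.0395 and -0.0188 ± 0.117 (SD, n = 4 and 3), differed by 0.0011 ± 0.0516 (SE).

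Dnajb9, an ER DnaJ protein that is a classical XBP1 target, varied in another order over the 7 livers than most of the rest. It stood at 0.130, -0.0382, -0.155 and 0.0844 in wild-type livers 1 to 4 and at -0.236, -0.0496 and -0.203 in knockout livers 2 to 4. Wild-type liver 3 was its lowest wild type and knockout liver 4 was below the pool. Its correlation was negative with 7 of the other 9 genes, from -0.50 with Sdf2l1 to 0.08 with Xbp1. Dnajb9 also had the largest genotype difference of the 10 genes, with means of -0.163 ± 0.0993 (SD, n = 3) in the knockouts and 0.0054 ± 0.128 (SD, n = 4) in the wild types. The knockouts read 1.47-fold lower, a difference of -0.168 ± 0.0742 (SE), and genotype took up 41.2% of the variation. The groups overlapped, since wild-type liver 3 lay below knockout liver 3.

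Creld2 and the disulfide isomerase genes Pdia6 and Pdia4 followed Derl3 to different degrees. Creld2, a secreted ER stress protein with isomerase activity, stood at -0.125, -0.364, 0.108 and -0.157 in wild-type livers 1 to 4 and at -0.197, -0.294 and 0.264 in knockout livers 2 to 4. Its lowest and highest livers were those of Derl3, and the range was 4.24-fold. Pdia6, an isomerase that also acts on the stress sensors, stood at -0.111, -0.0013, 0.122 and -0.126 in the wild types and at -0.221, -0.0685 and 0.159 in the knockouts. The same 2 livers were the highest, over a range of 2.40-fold. Pdia4, which encodes the isomerase ERp72, stood at -0.0327, -0.0970, -0.0732 and -0.126 in the wild types and at -0.185, -0.0919 and 0.160 in the knockouts. Here knockout liver 4 alone stood out, and the 4 wild types lay within 1.24-fold. The genotype differences were 0.0591 ± 0.15 (SE) for Creld2, -0.0143 ± 0.0942 for Pdia6 and 0.0434 ± 0.0738 for Pdia4, each smaller than its SE.

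Xbp1, whose spliced transcript encodes the active factor, was measured without telling its forms apart. It stood at -0.0649, 0.0245, -0.135 and -0.0733 in wild-type livers 1 to 4 and at -0.200, -0.0696 and 0.109 in knockout livers 2 to 4. Knockout liver 4 was the highest, while wild-type liver 3 was the lowest wild type, opposite to Derl3. The means were -0.0621 ± 0.0656 (SD, n = 4) in the wild types and -0.0535 ± 0.156 (SD, n = 3) in the knockouts, a difference of 0.0086 ± 0.0701 (SE). In whole liver, a change in the number of cells of a type cannot be told apart from a change in RNA per cell.

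**Figure D2:**
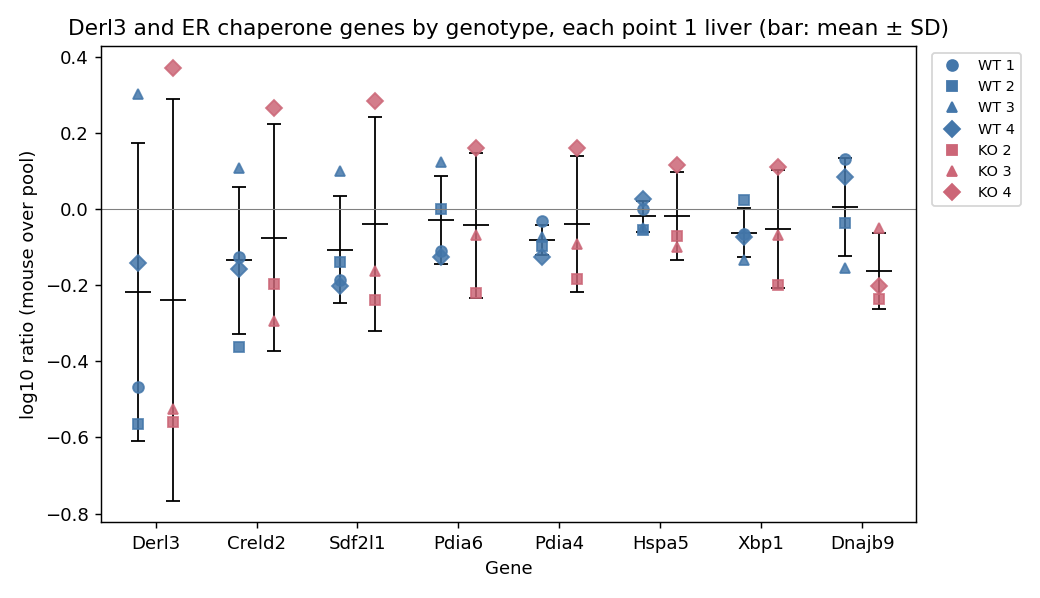
Log10 ratio to the pool for 8 of the genes, wild type in blue and knockout in red, with a point for each liver (its shape gives the liver number) and a bar for the mean ± SD of each genotype. KO 4 is the highest point for each gene but Dnajb9, and the genotypes overlap throughout.

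Taken by genotype, 5 of the 10 genes were higher in the knockouts and 5 lower, and the median difference was -0.0026, against 0.0054 over all measured genes, of which 56.7% were higher. The groups did not overlap in 0 of the 11 probes, against 5.26% of all probes. The genes were chosen with this contrast known, so nothing is read from that share. The sign of 9 of the 10 differences turned when a single liver was left out, and only that of Dnajb9 held, at -0.224 to -0.126. For Derl3 the difference ran from -0.324 without knockout liver 4 to 0.154 without wild-type liver 3, and it was -0.15 without both. Sdf2l1 and Pdia4 turned negative without knockout liver 4, at -0.0936 and -0.0560. Creld2 did so too (-0.111).

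The livers differed more than the genotypes. The median over the 10 genes reached 0.137 in knockout liver 4. It came next in wild-type liver 3, at 0.0188, and lay from -0.199 in knockout liver 2 to -0.0464 in wild-type liver 2 in the others. Knockout liver 4 was the highest liver for 7 genes, where 13.5% of all probes were highest in it, and it exceeded both other knockouts for 9 genes, against 29.1% of all probes. Wild-type liver 3 exceeded the other wild types for 4 genes (Derl3, Creld2, Sdf2l1 and Pdia6), against 25.3% of all probes. Knockout liver 2 was the lowest for 5 genes, against 18.7% of all probes, and it was also the array of widest spread. Its part in those values was not tested. The SD of 5 of the 11 probes lay above the 95th percentile of all probes.

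Over the 7 livers the genes varied together to a moderate degree, with a median Pearson r of 0.52 over 45 pairs, 37 of them above 0. Pairs within a table of arrays share the array and its scaling, and the choice of the genes rested on this measure. Removing the genotype means gave 0.54. The closest pairs were Derl3 with Creld2 (r = 0.93, Spearman rho 0.93) and Sdf2l1 with Pdia6 (r = 0.93, rho 1.0). Derl3 with Sdf2l1 reached r = 0.89 but rho 0.5, and Sdf2l1 with Creld2 reached r = 0.88 and rho 0.43. The order of the livers was thus close within the pair of Derl3 and Creld2 and within the pair of Sdf2l1 and Pdia6, and less so between these pairs.

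Leaving out the high livers changed these values, and not all in the same direction. With knockout liver 4 and wild-type liver 3 left out, the livers farthest from the Derl3 median, r over 5 livers was 0.53 for Derl3 with Creld2, -0.23 with Sdf2l1, -0.15 with Pdia6 and 0.80 with Hspa5. For Derl3 with Dnajb9 it was 0.57, against -0.35 over all 7 livers. In the same 5 livers Sdf2l1 and Pdia6 correlated at 0.99, and Sdf2l1 and Creld2 at -0.72. The relations of Derl3 with Sdf2l1 and Pdia6 therefore rested on those 2 livers, while the relation of Sdf2l1 with Pdia6 did not. The median r of all pairs without both livers was 0.36. It fell to 0.28 without knockout liver 4 alone and was 0.65, above the value over all livers, without wild-type liver 3 alone.

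**Figure D3:**
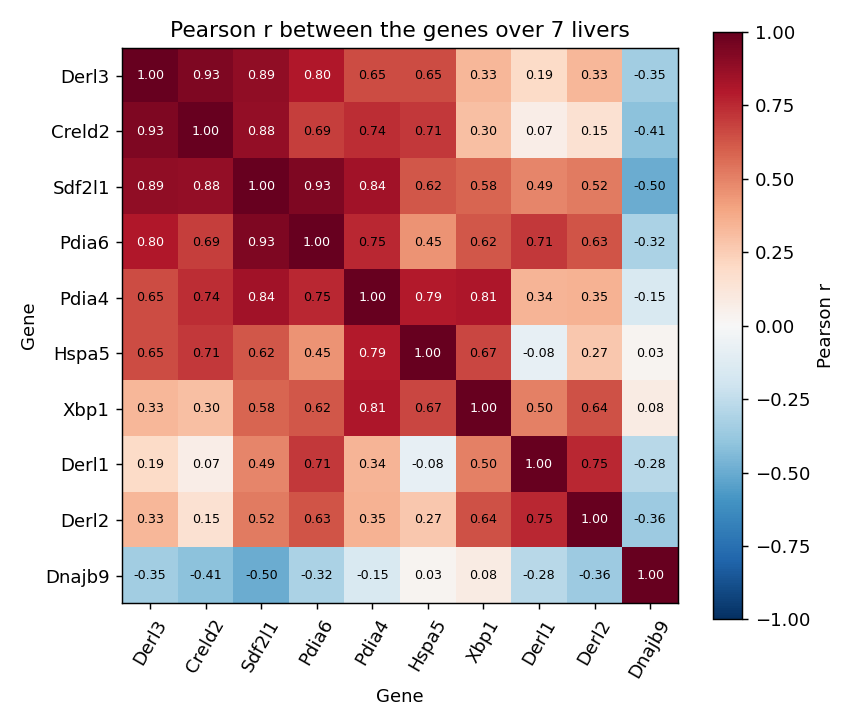
Pearson r over 7 livers for each pair of the 10 genes (probes of Derl1 averaged), with r printed in each cell. Derl3, Creld2, Sdf2l1 and Pdia6 form a block of r from 0.69 to 0.93, and the Dnajb9 row lies between -0.50 and 0.08.

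The genes closest to Derl3 were sought among 9090 probes with 1 symbol and an SD at or above the median of all probes. The 10 with the highest r over the 7 livers were P4ha2, Kdelr2, Aox3, Slc35d2, Sned1, Slc22a30, Cmtm6, Ugt2b38, Ddx19b and Slc17a2, with r from 0.97 to 0.94. P4ha2, a subunit of the ER enzyme that hydroxylates prolines of collagen, and Kdelr2, a receptor that returns chaperones from the Golgi to the ER, belong to the secretory pathway. Kdelr2 stood at -0.0411, -0.0388, 0.0519 and 0.0168 in the wild types and at -0.0230, -0.0156 and 0.0660 in the knockouts, a range of 1.28-fold. Its r was 0.84 in the 5 livers without the 2 highest. Ugt2b38, a glucuronosyltransferase of liver, had the widest range of the 10, 17.3-fold, with -0.812, -0.499, 0.226 and -0.120 in the wild types and -0.560, -0.585 and 0.425 in the knockouts. Aox3, the aldehyde oxidase of mouse liver, spanned 3.35-fold and had r = 0.85 without the 2 highest livers. In the same 5 livers r was 0.47 for Ddx19b and 0.56 for Slc17a2, the lowest of the 10, and 0.91 for Sned1, the highest. The 10 were picked by r over all 7 livers, so their r over these 5 is no independent result. Among the 5, wild-type liver 4 stood apart in Derl3, at -0.143, with the others between -0.566 and -0.469. How far r over the 5 rests on that liver was not tested. Against the mean of the 10 genes, each scaled to an SD of 1, the closest probes were those of Saraf, Lrig1, Uhrf2, Sertad4, Nxnl2, Kyat3, Dbf4, Rhou, Rgs21 and Tmem19, with r from 0.99 to 0.96, and 0 genes were shared with the Derl3 list. Saraf encodes a regulator of calcium entry in the ER membrane.

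Other genes of the ER were read from 8 lists of 141 measured genes, chosen with earlier results of these data known. None of the 141 passed the comparison of genotypes (limma, adjusted over all probes, 0 higher and 0 lower), against 0.00424% of all probes. Under an unadjusted p of 0.05 lay 5 of them, against 4.47% of all probes. In the knockouts 83 were higher and 58 lower, where 56.7% of all measured genes were higher. The smallest adjusted p in each list was 0.884. A correlation with Derl3 above 0.8 was seen for 9 of the 141, or 6.38%, against 1.95% of all other measured genes, as a description over 7 arrays.

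ER chaperones and co-chaperones (20 of 20 measured) had 11 genes higher and 9 lower, with a median difference of 0.0115. The differences ran from Sec62, of the translocation machinery, at -0.0772 ± 0.0403 (SE) to the calcium-binding chaperone gene Calr at 0.112 ± 0.0608. Hsp90b1, the ER form of HSP90, differed by 0.0355 ± 0.0666, and the lectin chaperone gene Canx by -0.0093 ± 0.0432. By liver, Hsp90b1 stood at -0.0933, -0.0419, 0.0921 and -0.0565 in the wild types and -0.0498, -0.0802 and 0.162 in the knockouts. It shared its 2 highest livers, knockout liver 4 and wild-type liver 3, with Derl3 (r = 0.91). Among the other 5 livers the order differed, since Hsp90b1 was highest in wild-type liver 2, where Derl3 was lowest. The BiP co-chaperone genes Dnajb11 and Dnajc3 had r = 0.92 and 0.85. Dnajb11 was highest in knockout liver 4 (0.215), followed by wild-type liver 3 (0.0739), and lay between -0.180 and -0.0500 elsewhere. The list mean was highest in the same livers, at 0.0689 and 0.0274, and between -0.0448 and -0.0091 in the other 5.

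ER oxidoreductases (19 of 19 measured) had 13 higher and 6 lower, with a median of 0.0141. They ran from the selenoprotein gene Selenof at -0.0975 ± 0.0606 (SE) to the thioredoxin-like Txndc11 at 0.0476 ± 0.0734. P4hb, the main disulfide isomerase gene, differed by 0.0177 ± 0.0237, its relative Pdia3 by 0.0155 ± 0.0855, and the ER oxidase gene Ero1a by 0.0114 ± 0.0243. Pdia5, Txndc5 and Erp29 correlated with Derl3 at 0.86, 0.82 and 0.87, and P4hb at 0.19.

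Genes of ER-associated degradation (24 of 26 measured) had 15 higher and 9 lower, with a median of 0.0097. Os9, a lectin that selects misfolded glycoproteins, differed by 0.0805 ± 0.0443 (SE), the deglycosylating enzyme gene Ngly1 by -0.149 ± 0.0600, and Herpud1, an ER stress gene, by 0.0733 ± 0.0772. The ubiquitin ligase gene Syvn1 and its partner Sel1l differed by 0.0789 ± 0.0494 and -0.0329 ± 0.0286. Of this list 0 genes correlated with Derl3 above 0.8, and the median r was 0.15, against 0.53 for the chaperones. The list mean nevertheless had r = 0.78, over a range of -0.0080 to 0.0133, and the contrast between the lists was not tested.

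Sensors and transcription factors of the response (13 of 14 measured, without Atf6) had 6 higher and 7 lower, with a median of -0.0071. Ern1, which encodes the kinase IRE1 that splices Xbp1, differed by 0.0574 ± 0.0269 (SE), Eif2ak3, which encodes PERK, by -0.0207 ± 0.0727, Atf6b by 0.0583 ± 0.0168 and Creb3l1 by -0.0492 ± 0.0329. The PERK and CHOP arm (10 of 11 measured) had 9 higher and 1 lower, with a median of 0.0322. Its list mean ran from -0.0367 to -0.0021 in the wild types and from 0.0118 to 0.0350 in the knockouts. Those means did not overlap, while 0 of the 10 genes passed and 56.7% of all measured genes were higher in the knockouts. By gene, the groups did not overlap for 1 of the 10, Atf4, against 5.26% of all probes. Atf4 differed by 0.0744 ± 0.0156, Ddit3 (CHOP) by 0.0298 ± 0.0718, Ppp1r15a by 0.0233 ± 0.0183, Atf5 by 0.0795 ± 0.0507 and Atf3 by -0.0119 ± 0.0454. Its mean was highest in knockout liver 2, the liver where 5 of the 10 genes described here were lowest.

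None of the genes that act before and after folding passed (limma, smallest adjusted p 0.884). Under an unadjusted p of 0.05 lay 2 of them, both in the N-glycosylation list, against 4.47% of all probes. For the translocon and signal peptidase (18 of 20 measured) 8 were higher and 10 lower, with a median of -0.0069, from Spcs1 at -0.0908 ± 0.0631 (SE) to Sec61g at 0.0448 ± 0.0633, and with Sec61a1 at 0.0343 ± 0.0330 and Sec61b at -0.0032 ± 0.0486. For N-glycosylation (18 of 18 measured) 12 were higher and 6 lower, with a median of 0.0147, from Tusc3 at -0.185 ± 0.0767 to Dad1 at 0.0903 ± 0.0329, both of the oligosaccharyltransferase, with Stt3a at -0.0203 ± 0.0613, Rpn1 at 0.0550 ± 0.0726 and Ddost at 0.0516 ± 0.0471. For ER to Golgi transport (19 of 20 measured) 9 were higher and 10 lower, with a median of -0.0019, from Mcfd2 at -0.101 ± 0.0634 to Gosr2 at 0.0499 ± 0.0295, with Sec24d at -0.0526 ± 0.0469, the cargo receptor gene Lman1 at 0.0291 ± 0.0497 and Kdelr2 at 0.0119 ± 0.0327. Sec61g and Rpn1, which serve import into the ER and its glycosylation, had r = 0.88 and 0.86 with Derl3.

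**Figure D4:**
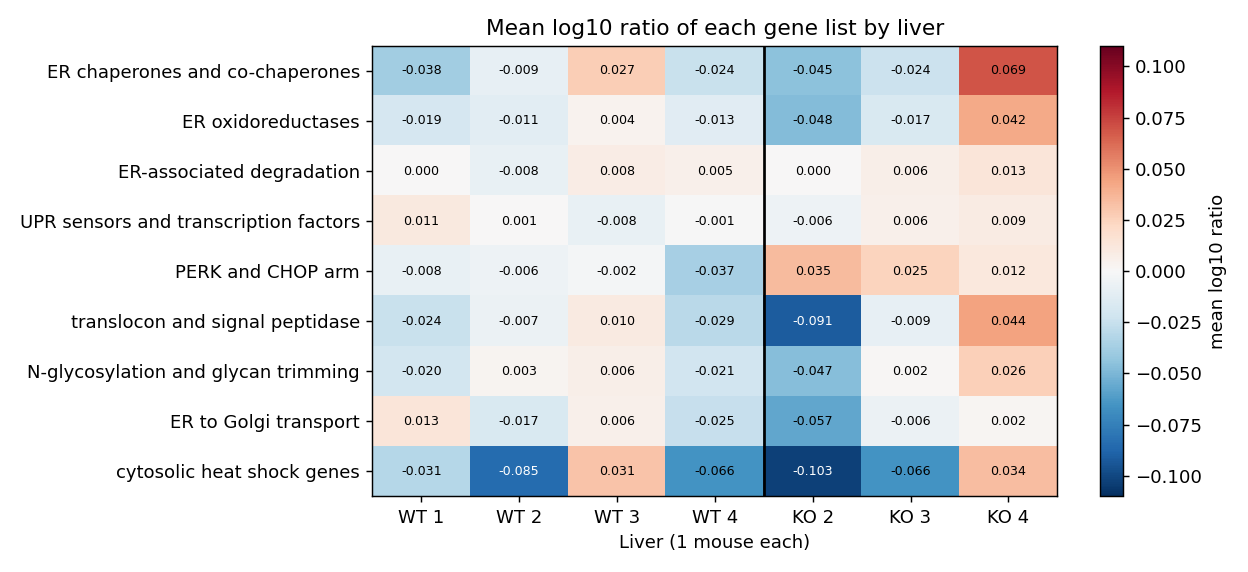
Mean log10 ratio over the measured genes of 8 ER lists and of heat shock genes outside the ER (rows) in each liver (columns), with the value printed in each cell. The heat shock row, labelled cytosolic, also holds the mitochondrial Hspd1 and Hspe1. ER chaperones reach 0.069 in KO 4 and 0.027 in WT 3, and the PERK and CHOP arm is above 0 in the 3 knockouts alone.

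Heat shock genes outside the ER, which answer to another factor, HSF1, also varied by liver. Most are cytosolic, while Hspd1 and Hspe1 encode mitochondrial chaperones. In this list 9 of 12 genes were measured, 4 were higher and 5 lower, with a median of -0.0175, and 0 passed (limma, smallest adjusted p 0.884). The highest list means, 0.0342 and 0.0314, were those of knockout liver 4 and wild-type liver 3, with values between -0.103 and -0.0310 in the others, and r with Derl3 was 0.90. By gene the correlations were lower than that of the list mean, with 0 of the 9 above r = 0.8 and a median r of 0.57. For the ER chaperones the list mean had r = 0.87, and by gene the median was 0.53, with 3 of 20 above 0.8. Knockout liver 4 exceeded the other knockouts in 5 of the 9, and wild-type liver 3 exceeded the other wild types in 4. Differences ran from Dnaja1 at -0.0872 ± 0.0390 (SE) to Hspb1 at 0.0699 ± 0.110, with Hsp90aa1 at 0.0544 ± 0.108, Hspa1a at 0.0508 ± 0.0644 and Dnajb1 at 0.0166 ± 0.0458.

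Markers of other cells that express these genes strongly were read beside them, since plasma cells and pancreatic acinar cells hold much ER. Plasma cell markers (10 of 13 measured, 5 higher and 5 lower) had list means from -0.0262 to 0.0148 over the 7 livers and a correlation of -0.08 with Derl3. Jchain, Mzb1 and Tnfrsf17 differed between genotypes by 0.0156 ± 0.0430 (SE), -0.0057 ± 0.0436 and 0.0013 ± 0.0269, and Eaf2 had the lowest difference at -0.150 ± 0.0549. Acinar markers (15 of 18 measured, 11 higher and 4 lower) had list means from -0.0196 to 0.0291 and a correlation of 0.49 with Derl3. The digestive enzyme genes Prss2 and Cpa1 differed by 0.0183 ± 0.0319 and 0.0204 ± 0.0156, Cpb1 by -0.0330 ± 0.0197 and Cela1 by 0.106 ± 0.0840. Cela1 ranged over 2.24-fold and was highest in wild-type liver 3 (0.179) and knockout liver 4 (0.130), while Cpa1 ranged over 1.09-fold. In knockout liver 3, where Derl3 was low (-0.526), Cela1 was nearly as high (0.120). By gene, r of the acinar markers with Derl3 ran from -0.73 for Pnliprp1 to 0.79 for Gp2, with a median of 0.08. The part of these cells in the Derl3 values was not tested, and a ratio to the pool does not show whether a probe read above background.

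Kupffer cell and macrophage markers (11 of 12 measured, with 0 passing) separated the 2 livers that were high in Derl3. Their list mean was highest in knockout liver 4 (0.119) and lowest in wild-type liver 3 (-0.232), with -0.171 to -0.0713 in the others. Knockout livers 2 and 3, at -0.115 and -0.171, lay within the range of the wild types, -0.232 to -0.0713. All 11 markers were higher in the knockouts on average, as were 56.7% of all measured genes. Marco, a scavenger receptor gene, had the highest genotype difference, at 0.365 ± 0.154 (SE), Vsig4 the lowest at 0.0025 ± 0.125, and Adgre1 and Clec4f differed by 0.0402 ± 0.130 and 0.0910 ± 0.0526. Hepatocyte markers (10 of 12 measured, 9 higher and 1 lower) had list means from -0.0588 in wild-type liver 3 to 0.0751 in knockout liver 3. Alb, Ttr and Apoa1 differed by 0.0324 ± 0.0392, 0.0448 ± 0.0470 and 0.0291 ± 0.0192, with Tat the highest at 0.201 ± 0.158 and Apob the lowest at -0.0135 ± 0.0683. These lists give shifts between livers and not the presence of a cell type, since ratios hold no level.

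The full response element was used to return to the whole table. It was present before the start site of 35 genes, 21 of which were measured, 17 of them outside the 10 genes. Of these 17, 7 were on the ER lists, namely Hsp90b1, Dnajc3, Canx, Calr, Ero1b, Syvn1 and Alg12. Their correlations with Derl3 were 0.91, 0.85, 0.71, 0.62, 0.24, 0.15 and -0.59. The median over the 17 was 0.05, and over all other measured genes 0.00. Of the 17, 2 had an r above 0.8, against 1.95% of all other measured genes, as a description over 7 arrays.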

How the data were processed

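Liver RNA of 7 mice was measured on 2-colour arrays, 1 mouse per array, against a common pool. The authors' values were taken to be log10 ratios, deposited with array medians near 0 and with no statement of scale or normalization; per the labels, RNA was purified on silica columns, amplified, and labelled by aminoallyl coupling, and dyes were swapped per the design text. How swapped arrays were merged, the scanner software and background correction are not given in the sources used here. Of 23574 probes, 17824 carried 1 symbol in the platform's annotation, updated through Entrez numbers (17724 probes) or accessions (21), 50 carried several and 5700 none. Unused value columns numbered 0.

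Each probe was fitted with limma 3.58.1 in R 4.3.3 (lmFit, eBayes, knockout minus wild type, two-sided, Benjamini-Hochberg over all probes, threshold 0.05), which also gave the moderated SEs of the 10 genes; SEs of list genes are from the same model with probes of a symbol averaged. The fit was tested on simulated data. The 10 genes, the lists and the rules were chosen with earlier results of these data known. Named were all 10 genes, the first 3 measured and the extreme genes of each list, and the 10 probes most like Derl3 and most like the mean of the 10 genes; genes named for their correlation with Derl3 within lists, for the ERSE or as opposite to Derl3 were chosen after their values were seen. Replicates are separate mice per the labels. Deviations from the genotype means correlated at -0.137, -0.205 and -0.154 for arrays of equal liver number. For arrays of unequal number they correlated at -0.293 to 0.329. So few values do not decide whether equal numbers pair the arrays, and the main fit used no pairing. Correlations use r over 7 arrays. Alternatives were 3 scalings, array weights, a replicate block, a robust and an ordinary test, probe handling and leaving out each liver.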

Additional observations from a re-analysis of the deposited data

How the results depend on the processing

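The count of probes past the threshold, 1 over the whole table, was 0 after quantile normalization, after scaling of the arrays, with the replicate block and by the ordinary test, and 4 when the less variable probes were left out. It ranged from 0 to 3 when 1 liver was left out, being 0 on omitting wild-type liver 3 or any 1 knockout. Omitting wild-type liver 1 gave 2 probes, and omitting wild-type liver 4 gave 3. It remained 1 with median centring, array weights, a robust fit and averaged probes. The median genotype difference of the 10 genes, -0.0026, moved by less than the spread between mice (0.117) under each alternative, with a changed sign in several. It was 0.0082 after quantile normalization, 0.0253 after scaling and -0.0101 with the replicate block, and ran from -0.0833 (without knockout liver 4) to 0.0782 (without knockout liver 2) when 1 liver was left out. The signs for Derl3 and Pdia6 turned under 2 of the 3 scalings and those for Derl1, Derl2 and Hspa5 under 1. Array weights turned the signs for Derl1, Hspa5 and Creld2. The median correlation, 0.52, ranged from 0.28 to 0.65 without 1 liver, was 0.40 after quantile normalization and 0.69 with the replicate block, and was 0.36 without wild-type liver 3 and knockout liver 4, a setting chosen after seeing the data. Signal over background was not analysed here, so dim probes cannot be told from stable ones.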

Other observations

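Genes that ran opposite to Derl3 over the 7 livers are not covered by the lists above. They were sought, after the values had been seen, among 299 measured genes with an SD of at least 0.15 over the 7 livers, where the 12 lowest correlations ran from -0.95 to -0.83. The 12 included Cyp2b10, Cyp2b9 and Cyp2b13, cytochromes of drug and steroid metabolism, the flavin monooxygenase gene Fmo2, the steroid hydroxylase gene Cyp17a1 and the anion transporter gene Slco1a4. They also included Fkbp5, Cebpd and Mt2, genes known to be induced by glucocorticoids, as well as Ccn2, Slc41a3 and Sult1e1. Fkbp5, a co-chaperone of the glucocorticoid receptor, stood at 0.129, 0.221, -0.202 and -0.120 in wild-type livers 1 to 4 and at 0.226, 0.327 and -0.168 in knockout livers 2 to 4. The 3 livers with the highest Derl3 were thus the 3 with the lowest Fkbp5, and r was -0.93 over 7 livers and also -0.93 over the 5 without wild-type liver 3 and knockout liver 4. Among those 5, wild-type liver 4 stood apart from the others in both genes (Derl3 -0.143, Fkbp5 -0.120). How far that r rests on it was not tested. Mt2, a metallothionein gene, stood at -0.559 and -0.408 in wild-type liver 3 and knockout liver 4 and above 0 in the other 5, and among those 5 its r was 0.02. Cyp2b10 spanned 3.07-fold (r = -0.95) and Cyp2b9 spanned 7.19-fold (r = -0.94), and over the same 5 livers r was -0.75 and -0.39. Of the 12 genes, r over those 5 livers ran from -0.93 for Fkbp5 to 0.24 for Cyp2b13. The 12 were picked by r over all 7 livers, so their low r there is no independent result. None of the 12 passed between genotypes (limma, smallest adjusted p 0.884).

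On the same side as Derl3, the genes of highest r with that SD were Aox3, Ugt2b38, the peroxisomal hydrolase gene Nudt7 (r = 0.93, 3.04-fold) and Tmeff2 (r = 0.93, 3.25-fold). Gadd45a, a growth arrest gene, had r = 0.89, and so had the ubiquitin ligase gene Rnf186.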
